A study of Homo sapiens with 12 samples.

Results

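The mitochondrially encoded genes are the 37 genes of the human mitochondrial genome, taken here as every row of the count table whose gene name starts with MT- and whose chromosome is chrM, out of 57169 rows in all. They comprise 2 ribosomal RNAs, 13 messenger RNAs and 22 transfer RNAs between chrM:577-16023 (hg38, GENCODE release 29). Gene counts came from 12 libraries of tumours grown from SK-ES1, an established line of Ewing sarcoma, a bone and soft tissue cancer driven by the fusion factor EWSR1-FLI1. In 6 of them RING1B, the Polycomb ubiquitin ligase encoded by RNF2, was knocked down, and the other 6 were controls that the labels call wild-type. The silencing construct, any control construct, the host animal, its age and the time of tumour growth are not stated by the labels, nor whether each library came from its own animal, so every p-value below reflects only how these libraries vary, which may be technical. All libraries share the line, the growth as a xenograft and a poly(A)-selecting, stranded mRNA kit. Host RNA that aligned to human sequence, mitochondrial or nuclear, would have been counted with that of the tumour.

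Human mitochondrial DNA is a small circle read from both strands as long transcripts that cover many genes. Most transfer RNAs lie between the other genes, and their excision releases the messenger and ribosomal RNAs. The messenger RNAs encode subunits of the respiratory chain: MT-ND1 to MT-ND6 and MT-ND4L belong to complex I, MT-CYB to complex III, MT-CO1 to MT-CO3 to complex IV and MT-ATP6 and MT-ATP8 to the ATP synthase, complex V. MT-RNR1 and MT-RNR2 are the RNAs of the small and large mitochondrial ribosomal subunits. Most of these RNAs are read in 1 direction and are called heavy-strand members below. The other direction gives MT-ND6 and 8 transfer RNAs, called light-strand members below, 9 in all. Every factor that copies, transcribes, cuts, modifies and translates this genome comes from nuclear genes.

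Poly(A) matters for these RNAs in a particular way, because several mitochondrial reading frames end inside a codon and the stop is completed only by the A residues added after cutting. The annotated 3′ ends show which members these are, but not how long a tail each RNA carries. In 6 of 13 messenger RNAs the last codon was incomplete: 5 ended in a single T and 1 in TA. Below are the last 20 bases of 3 incomplete ends and 2 complete ones from the GENCODE 29 transcripts, 5′ to 3′ in the sense direction, with the bases of the last codon in capitals. MT-ND1 lies at chrM:3307-4262, MT-CO3 at chrM:9207-9990, MT-CYB at chrM:14747-15887 and MT-CO1 at chrM:5904-7445 on the plus strand, and MT-ND6 at chrM:14149-14673 on the minus strand.

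MT-ND1: agcattccccctcaaaccTA
MT-CO3: catctattgatgagggtctT
MT-CYB: caaaatactcaaatgggccT
MT-CO1: ccgtatacataaaatctAGA
MT-ND6: agattgctcgggggaatAGG

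MT-ND6 and the transfer RNAs are known to carry no poly(A) tail or a very short one, and the ribosomal RNAs only short tails. Their counts in a poly(A)-selected library are therefore a measure of what was captured, not of the whole pool. Neighbours also share bases: MT-ATP8 and MT-ATP6 overlap over 46 bases, which is 22.2% of MT-ATP8, and MT-ND4L and MT-ND4 over 7. MT-ATP6 and MT-CO3 share 1 base, MT-TC and MT-TY 1, and MT-TI and MT-TQ, on opposite strands, 3. The strand setting of the counting is not given in the sources used here, so reads of a light-strand member and of heavy-strand RNA across the same bases cannot be told apart.

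Libraries held 23859184 to 26678325 counts, and 3 counts corresponded to 0.109 to 0.128 CPM, which are counts scaled by library size. RNF2 averaged 17.7 ± 4.56 CPM in knock-down and 47.6 ± 8.44 CPM in control libraries (SD, n = 6 each), and the groups did not overlap (log2 fold change −1.43, SE 0.174, edgeR adjusted p = 0.00347). Of 10 Ewing sarcoma markers 9 had counts, with summed levels of 2215 to 2790 CPM in knock-down and 1874 to 2296 CPM in control libraries. Most of the sum came from CCND1, at means of 1122 CPM in knock-down and 1086 CPM in control libraries, and FCGRT, at 896 and 651 CPM. XAGE1B was near the floor, at means of 0.190 CPM in knock-down and 0.184 CPM in control libraries. CD99, the marker without counts, had 0 in all 12 libraries. The same held for all 18 protein-coding rows with exons annotated on both sex chromosomes, so the 0 of CD99 says nothing about the tumour. The edgeR quasi-likelihood F test, adjusted by Benjamini-Hochberg over 16519 genes, called 49 at an adjusted p below 0.05, or 0.297%. Control 6 was the highest control in 27 of the 29 tested members, and it had the fewest genes with a count, 24918 against up to 27456 elsewhere. Group comparisons of members, copies and nuclear lists are also given without it. In bulk tumour RNA, fewer cells of a type and less RNA per cell cannot be told apart.

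Mitochondrial RNA was among the most abundant RNA of these tumours. Per kilobase of gene length, members held each of the 10 highest places of all rows, 14 of the first 20 and 17 of the first 50. The highest was MT-CO3, a core subunit of cytochrome c oxidase, at a mean of 12274 CPM per kilobase over all 12 libraries. MT-CO2, which takes electrons from cytochrome c, followed at 11380 CPM per kilobase and MT-ND4, of the proton-pumping arm of complex I, at 11337 CPM per kilobase. These 3 had no firm order among themselves, since MT-CO3 exceeded MT-CO2 in 9 of 12 libraries and MT-CO2 exceeded MT-ND4 in 6. A clear step separated MT-ND4 from MT-CO1, the catalytic subunit of complex IV, in all 12 libraries, with MT-CO1 at 7160 CPM per kilobase.

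A middle group ran from MT-ATP6, the proton channel subunit of the ATP synthase, at 6391 CPM per kilobase to MT-ND1, where complex I binds quinone, at 2949 CPM per kilobase. Its other members were MT-ND4L at 5958, MT-ND2 at 4411, MT-ATP8 at 4245, MT-CYB at 4001, MT-RNR2 at 3755 and MT-ND3 at 3297 CPM per kilobase. Within this group the order of neighbours was mostly not kept from library to library: MT-ATP6 lay above MT-ND4L in 7 of 12, MT-ND2 above MT-ATP8 in 5 and MT-ND3 above MT-ND1 in 4. MT-ND5, the last gene of the heavy-strand block of complex I, lay below MT-ND1 in every library with 1215 CPM per kilobase. MT-RNR1 had 861 CPM per kilobase. The lowest of the 15 ribosomal and messenger RNAs was MT-ND6 with 790 CPM per kilobase, which left MT-CO3 15.5-fold above it. As MT-ND6 and the ribosomal RNAs are poorly selected by poly(A), their place in this order describes the libraries.

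**Figure D1:**
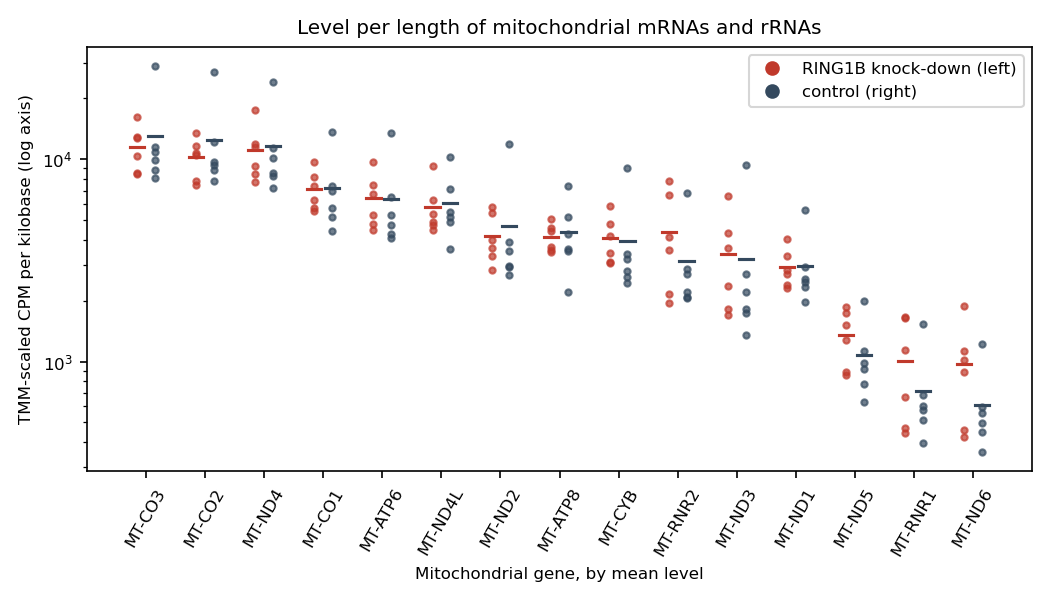
Level per length of the 15 mitochondrial ribosomal and messenger RNAs, ordered by their mean over all libraries. The y axis is TMM-scaled CPM per kilobase on a log axis, each point is 1 library (knock-down left of control for each gene) and each bar is a group mean. The single control point far above the others in most columns is control 6.

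Of the 22 transfer RNAs, 14 had enough counts to be tested. MT-TC and MT-TY, the light-strand transfer RNAs for cysteine and tyrosine, which lie end to end, had the most: MT-TC averaged 112 ± 46.3 CPM in knock-down and 80.0 ± 2.99 CPM in control libraries (SD, n = 6 each). The 8 untested members were all transfer RNAs. MT-TA, MT-TN and MT-TK had no count in any library, MT-TF and MT-TD had at most 5, MT-TW at most 7, MT-TV at most 9 and MT-TS1 at most 18.

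The share of all counts that fell on mitochondrial genes did not separate the groups. It was 5.55%, 7.64%, 5.58%, 8.42%, 10.01% and 6.14% in knock-down 1 to 6, against 5.50%, 5.56%, 7.08%, 4.65%, 6.61% and 14.4% in control 1 to 6. The highest and the lowest library were both controls, and all 6 knock-down values lay between them. Means were 7.22 ± 1.79% in knock-down and 7.31 ± 3.604% in control libraries (SD, n = 6 each), with medians of 6.89% in knock-down and 6.08% in control libraries. The difference in means, knock-down minus control, was −0.0848 percentage points, and it was 1.34 points without control 6. A share summed over chosen genes is given here as a description, with no test.

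Each class of RNA followed the same picture, with groups that overlapped. The messenger RNAs made up 6.43 ± 1.47% of counts in knock-down and 6.74 ± 3.32% in control libraries (SD, n = 6 each). Complex I genes took a mean of 2.79% in knock-down and 2.84% in control libraries, and complex IV genes 2.67% in knock-down and 2.94% in control libraries. Complex V genes took 0.515% in knock-down and 0.517% in control libraries, and MT-CYB 0.459% in knock-down and 0.440% in control libraries. Each of these differences was smaller than the SD of either group. The ribosomal RNAs took 0.765 ± 0.402% in knock-down and 0.547 ± 0.285% in control libraries (SD, n = 6 each). The transfer RNAs were a trace, 0.0243% in knock-down and 0.0171% in control libraries. Without control 6 the control means were 5.43% for the messenger RNAs, 2.28% for complex I, 2.39% for complex IV, 0.424% for complex V and 0.433% for the ribosomal RNAs. Each of these lay below the knock-down mean, so the sign of the difference turned for the messenger RNAs and for complexes I, IV and V. The groups still overlapped in every class.

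Library titles carry numbers, and 4 numbers occur on 2 libraries each, always within a group; what a number marks is not stated. Libraries with the same number were not always alike in their mitochondrial share. Knock-down 5 and 6 differed 1.63-fold, knock-down 3 and 4 1.51-fold, control 4 and 5 1.42-fold and control 1 and 2 1.01-fold.

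**Figure D2:**
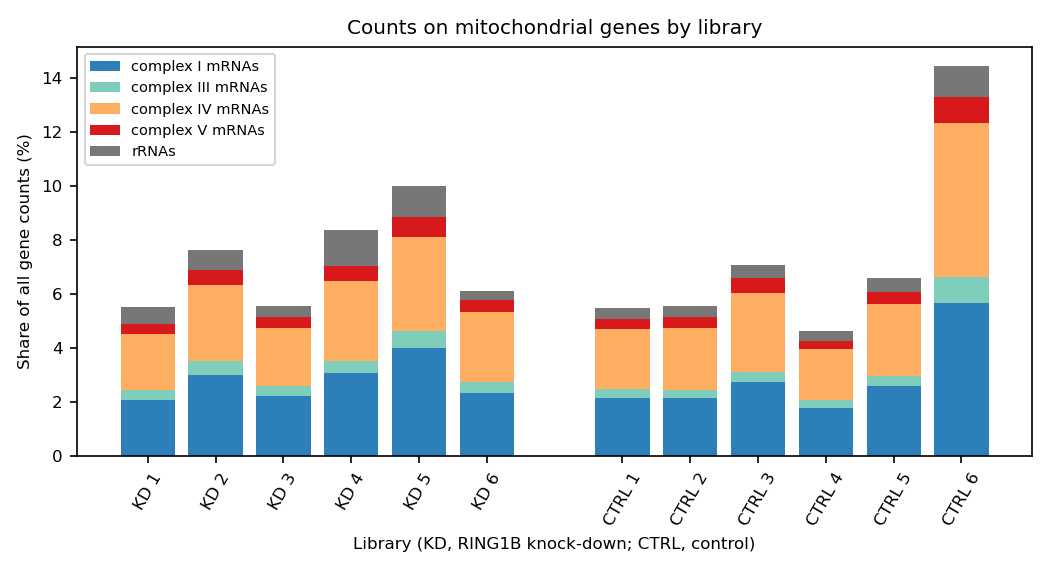
Share of all gene counts on mitochondrial genes in each library, in percent, stacked by respiratory complex for the messenger RNAs and with the ribosomal RNAs on top (KD, knock-down; CTRL, control). The knock-down libraries reach 5.55% to 10.01%, control 6 14.4% and the other controls 4.65% to 7.08%.

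No mitochondrially encoded gene was called different between RING1B knock-down and control tumours. Of 29 tested members edgeR called 0 in either direction, against 0.297% of all genes called and 0.176% called higher. DESeq2 and limma-voom also called 0 members, beside 351 and 56 genes of the whole table. An unadjusted edgeR p below 0.05 occurred in 4 of 29 members, beside 12.7% of all genes tested, and all 4 had positive log2 fold changes, beside 7.45% of all genes. Every member's groups overlapped, whereas 1.22% of all genes tested had groups that did not. The median log2 fold change was 0.05 over the 29 members, with 16 positive, beside 0.01 over all genes, of which 52.4% were positive.

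Among the core subunits of the respiratory chain the estimates lay close to 0. MT-CO1 had 8865, 11346, 8520.1, 12559, 14863 and 9706 CPM in knock-down 1 to 6, against 8885, 7981, 11304, 6811, 10718 and 20937 CPM in control 1 to 6. Its controls spanned the whole knock-down range, and edgeR estimated a log2 fold change of −0.02 (SE 0.236, adjusted p = 0.987). MT-CYB, the only mitochondrially encoded subunit of complex III, had 3483, 5476, 3544, 4776, 6681 and 3933 CPM in knock-down 1 to 6, against 3192, 3001, 3684, 2794, 3877 and 10344 CPM in control 1 to 6. Knock-down 2, 4, 5 and 6 lay above the other 5 controls, but control 6 lay above all 11 other libraries, and edgeR gave a log2 fold change of 0.05 (SE 0.296, adjusted p = 0.962).

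MT-ATP6 had a log2 fold change of 0.01 (edgeR adjusted p = 0.994) and MT-ATP8, which stabilises the ATP synthase, one of −0.08 (0.920). In complex IV, MT-CO2 had −0.28 (SE 0.271, edgeR adjusted p = 0.697) and MT-CO3 −0.17 (0.840). Of the complex I genes MT-ND1 had −0.02, MT-ND2 −0.16, MT-ND3 0.09, MT-ND4 −0.07 and MT-ND4L −0.06, with edgeR adjusted p from 0.883 to 0.980. MT-ND5, at the membrane tip of complex I, had 0.34 (SE 0.263, edgeR adjusted p = 0.621). Over the 12 heavy-strand messenger RNAs 4 were positive, and the median log2 fold change was −0.04.

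The ribosomal RNAs had larger positive estimates with wide errors. MT-RNR2, the large-subunit RNA, had 5554, 6453, 3380.2, 12179, 10390.2 and 3048 CPM in knock-down 1 to 6, against 3452, 3229, 4203, 3240.1, 4455 and 10672 CPM in control 1 to 6. Knock-down 4 and 5 and control 6 stood well above the other 9 libraries, and edgeR put the log2 fold change at 0.49 (SE 0.368, adjusted p = 0.609). MT-RNR1, the small-subunit RNA, averaged 957 ± 534 CPM in knock-down and 685 ± 395 CPM in control libraries (SD, n = 6 each; log2 fold change 0.48, SE 0.377, edgeR adjusted p = 0.624). The ratio of MT-RNR2 to MT-RNR1 counts lay between 5.96 and 8.72 in knock-down and between 5.31 and 8.57 in control libraries.

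All 4 members with an unadjusted p below 0.05 were light-strand transfer RNAs. MT-TE, which carries glutamate, had 23.3, 26.4, 9.32, 64.1, 18.8 and 6.78 CPM in knock-down 1 to 6, against 10.05, 9.37, 7.85, 7.47, 10.6 and 10.01 CPM in control 1 to 6. Of the knock-down libraries 4 lay above every control, knock-down 3 lay within the narrow control range and knock-down 6 below it. In edgeR its log2 fold change was 1.42 (SE 0.410, unadjusted p = 0.00341, edgeR adjusted p = 0.180). Without knock-down 4 it was 0.87 (edgeR adjusted p = 0.262).

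MT-TC had 95.7, 105, 74.3, 195, 133 and 71.1 CPM in knock-down 1 to 6, against 76.5, 80.5, 81.7, 77.4, 79.5 and 84.7 CPM in control 1 to 6. Its neighbour MT-TY had 49.5, 60.8, 36.1, 109, 82.4 and 36.8 CPM in knock-down 1 to 6, against 42.0, 43.1, 42.0, 40.7, 45.0 and 43.3 CPM in control 1 to 6. In both, knock-down 1, 2, 4 and 5 lay above every control and knock-down 3 and 6 below every control. The log2 fold change was 0.49 for MT-TC (SE 0.201, edgeR adjusted p = 0.329) and 0.55 for MT-TY (SE 0.229, edgeR adjusted p = 0.337). MT-TP, the proline transfer RNA, averaged 3.27 ± 2.22 CPM in knock-down and 1.60 ± 0.860 CPM in control libraries (SD, n = 6 each; log2 fold change 1.03, SE 0.462, edgeR adjusted p = 0.372).

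MT-ND6, the complex I subunit read from the same strand as these transfer RNAs, had 468, 533, 242, 993, 594 and 222 CPM in knock-down 1 to 6, against 259.7, 235, 293, 188, 313 and 638 CPM in control 1 to 6. Knock-down 4 was the highest library and control 6 the next, so the groups overlapped widely. Its log2 fold change was 0.66 (SE 0.352, unadjusted p = 0.0783, edgeR adjusted p = 0.454). MT-TQ, which carries glutamine, was the last light-strand member tested, at 0.146 to 1.06 CPM in knock-down and 0.222 to 0.754 CPM in control libraries (log2 fold change 0.45, edgeR adjusted p = 0.723).

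The split by strand was chosen after these values were seen and has no test. All 6 tested light-strand members had positive log2 fold changes, from 0.45 to 1.42 with a median of 0.61 and edgeR adjusted p from 0.180 to 0.723. The 23 tested heavy-strand members had a median of −0.02 with 10 positive. Among the 9 heavy-strand transfer RNAs 4 were positive, with a median of −0.13. MT-TL1, for leucine, had the largest of these (0.61, edgeR adjusted p = 0.447) and MT-TG, for glycine, the lowest (−0.57, edgeR adjusted p = 0.619), followed by MT-TS2, for serine (−0.49, edgeR adjusted p = 0.524). MT-TH, for histidine, had −0.44, MT-TR, for arginine, −0.17 and MT-TL2, also for leucine, −0.13. On the positive side MT-TT, for threonine, had 0.56, MT-TM, for methionine, 0.22 and MT-TI, for isoleucine, 0.16. None of the 9 had an unadjusted p below 0.05. Without knock-down 4 the light-strand median was 0.35 and the range 0.26 to 0.87.

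**Figure D3:**
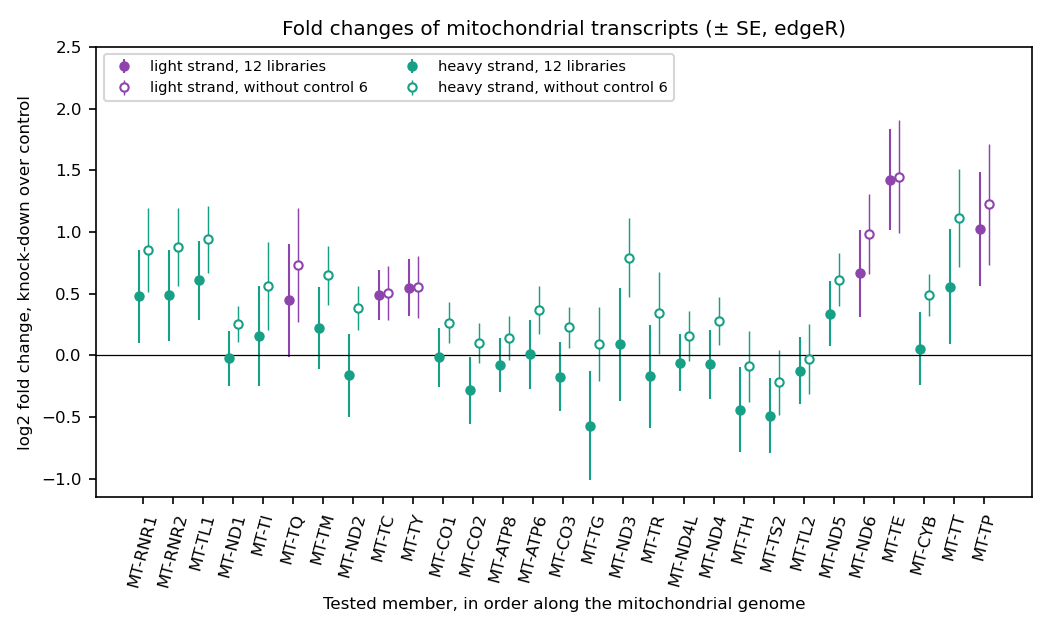
Log2 fold change, knock-down over control, of the 29 tested members in their order along the mitochondrial genome, with standard errors from the edgeR fit. Filled points use all 12 libraries and open points leave out control 6, and purple marks the 6 light-strand members, which lie above 0 in both fits. No member passed an adjusted p of 0.05 in either fit.

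Leaving out control 6 moved most estimates upward. That library was the highest control in 27 of the 29 tested members, so leaving it out raises their estimates by that choice. The shares of all genes given beside them below are therefore not a like background. All 13 messenger RNAs then had positive log2 fold changes, from 0.10 for MT-CO2 to 0.98 for MT-ND6, with a median of 0.28. For MT-CYB the value was 0.49 (edgeR adjusted p = 0.161), for MT-ND5 0.61 (0.168), for MT-ND3 0.79 (0.213), for MT-RNR2 0.88 (0.177) and for MT-RNR1 0.86 (0.205). In all 26 of 29 members were positive, beside 52.8% of all genes, and 14 of 29 had an unadjusted p below 0.05, beside 19.2% of all genes. None was called, with edgeR adjusted p from 0.123 to 0.966, against 0.461% of all genes called without that library. Leaving out control 6, knock-down 4 and knock-down 5 together, a choice made after the data were seen, left 23 of 29 positive and 0 called, beside 49.9% of all genes positive and 0.644% called in that fit.

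Knock-down 4, knock-down 5 and control 6 were all high in the ribosomal RNAs and varied in the other members. In knock-down 4 the light-strand members stood 1.41-fold to 3.41-fold above the median of the other knock-down libraries and the ribosomal RNAs 2.19-fold and 2.45-fold, with 1.03-fold to 1.55-fold in the heavy-strand messenger RNAs. Its heavy-strand transfer RNAs ranged from 0.713-fold to 2.92-fold, with MT-TT at 2.92-fold and MT-TL1 at 2.39-fold inside the light-strand range. In knock-down 5 the ribosomal RNAs were 1.87-fold and 2.499-fold and the heavy-strand messenger RNAs 1.23-fold to 2.78-fold the median of the other knock-down libraries, while the light-strand members ran from 0.379-fold to 1.66-fold with a median of 1.04. Control 6 exceeded the median of the other controls 1.99-fold to 5.18-fold in the 13 messenger RNAs, the most in MT-ND3 and next in MT-ND2 with 4.01-fold. Its ribosomal RNAs were 2.67-fold and 3.09-fold above that median, and its light-strand members divided: MT-TC, MT-TY and MT-TE were 1.07-fold, 1.03-fold and 1.07-fold that median, but MT-TQ was 3.16-fold, MT-ND6 2.46-fold and MT-TP 2.37-fold.

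Ratios within a library set aside its overall mitochondrial level. Ribosomal RNA counts per 100 messenger RNA counts were 12.7, 10.4, 7.73, 19.3, 12.9 and 6.18 in knock-down 1 to 6, against 8.19, 7.49, 7.32, 8.61, 8.47 and 8.39 in control 1 to 6. Of the knock-down libraries 4 lay above every control, knock-down 3 inside the control range and knock-down 6 below it, and control 6 was like the other controls. Means were 11.5 ± 4.63 in knock-down and 8.08 ± 0.542 in control libraries (SD, n = 6 each), a difference of 3.46 that stayed between 1.91 and 4.53 when any library was left out and was 3.52 without control 6.

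Light-strand counts per 100 messenger RNA counts were also highest in knock-down 4. They were 1.32, 1.01, 0.733, 1.92, 0.892 and 0.605 in knock-down 1 to 6, against 0.778, 0.746, 0.657, 0.748, 0.756 and 0.539 in control 1 to 6. Knock-down 4, 1, 2 and 5 lay above every control, and control 6 had the lowest value of all 12. Set against MT-CYB, its neighbour across MT-TE on the opposite strand, MT-ND6 had 13.4, 9.73, 6.82, 20.8, 8.89 and 5.66 counts per 100 in knock-down 1 to 6, against 8.14, 7.82, 7.95, 6.72, 8.06 and 6.17 in control 1 to 6. MT-TE itself had 1.72 to 13.4 counts per 1000 MT-CYB counts in knock-down and 0.967 to 3.15 in control libraries. Without control 6 the difference in means, knock-down minus control, was 0.343 for the light-strand counts, against 0.376 with it, and 3.15 for MT-ND6 per 100 MT-CYB counts, against 3.41 with it. For MT-TE per 1000 MT-CYB counts it was 2.59 without control 6 and 2.88 with it. The knock-down group was the more spread in each of these ratios, and the groups overlapped in all of them. The light-strand ratio and the MT-CYB ratios were chosen after the values were seen.

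**Figure D4:**
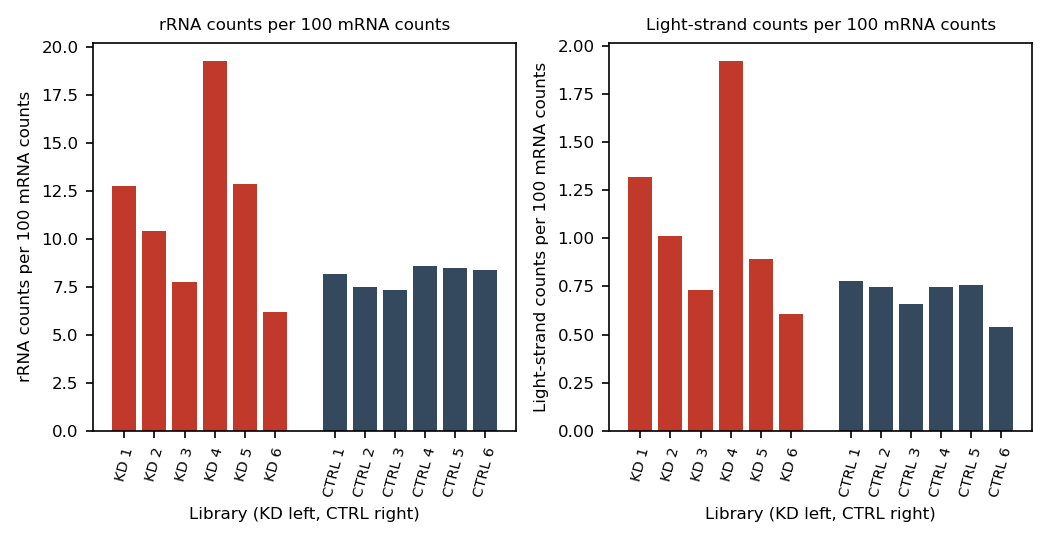
Ribosomal RNA counts (left panel) and light-strand counts (right panel) per 100 counts of the 13 mitochondrial messenger RNAs, 1 bar per library (KD, knock-down; CTRL, control). On the left, knock-down libraries lie between 6.18 and 19.3 and controls between 7.32 and 8.61. On the right, knock-down libraries lie between 0.605 and 1.92 and controls between 0.539 and 0.778. The light-strand ratio was chosen after the values were seen.

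In the make-up of the messenger RNA pool the groups overlapped for every gene, with 0 of 13 free of overlap, though some mean shares differed. MT-ND4 took the largest share of reads, 23.1 ± 1.40% in knock-down and 23.5 ± 0.455% in control libraries (SD, n = 6 each). MT-CO2 took 10.9 ± 0.976% in knock-down and 12.4 ± 0.658% in control libraries. Only knock-down 6, with 12.7%, lay inside the control range of 11.2% to 12.9%, and the other 5 knock-down libraries lay below it, at 9.95% to 11.01%. MT-CYB had 7.13 ± 0.284% in knock-down and 6.40 ± 0.509% in control libraries. MT-ND5 had 3.78 ± 0.825% in knock-down and 2.92 ± 0.301% in control libraries, and MT-ND6 had 0.769 ± 0.364% in knock-down and 0.476 ± 0.0377% in control libraries (SD, n = 6 each). Without control 6 the control means were 12.3% for MT-CO2, 6.25% for MT-CYB, 3.004% for MT-ND5 and 0.483% for MT-ND6. MT-CYB alone of the 13 was then free of overlap, by a narrow gap, at 6.70% to 7.57% in knock-down and 5.67% to 6.65% in the 5 controls. Control 6, the library left out, had the highest control share of MT-CYB, 7.15%, so the gap follows from leaving it out. How many genes of the whole table lack overlap without that library was not counted. These shares sum to a fixed total, so they are not independent of each other.

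Markers of host cells and a sum over histone cluster genes varied between the same libraries, and their part in these values was not tested. Summed macrophage and leukocyte markers, 13 of 14 with a count, ran from 7.87 to 35.3 CPM in knock-down and from 6.41 to 27.1 CPM in control libraries. CD3E was at 0, and CD68, CD14, C1QA and NKG7 averaged below 0.1 CPM. All 10 fibroblast and pericyte markers had counts, with sums of 423 to 1609 CPM in knock-down and 574 to 1587 CPM in control libraries. Both sums were highest in knock-down 4 within its group and in control 5, followed by control 6, within theirs. Skeletal muscle is rich in mitochondria, and its 15 markers summed to 12.7 to 35.4 CPM in knock-down and 18.2 to 51.2 CPM in control libraries. Knock-down 6 and control 2 had the highest muscle sums of their groups, and control 6 was the lowest control. Endothelial markers, 10 of 10 with a count, summed to 18.8 to 31.9 CPM in knock-down and 19.0 to 31.7 CPM in control libraries. Their sum was again highest in knock-down 4 and in control 5 within their groups, with 21.1 CPM in control 6. The 6 adipocyte markers summed to 0.801 to 2.64 CPM in knock-down and 0.542 to 1.71 CPM in control libraries, with ADIPOQ, LEP and CIDEC below 0.1 CPM. Knock-down 4 and control 5 had the highest adipocyte sums of their groups too, and control 6 followed control 5 with 1.59 CPM. For each of these 5 host lists the groups overlapped. Host and tumour RNA aligned to human sequence were counted together, so these sums cannot tell host cells from tumour cells with the same RNAs. Genes of the histone clusters, 70 with a count, summed to 177 to 271 CPM in knock-down and 169 to 191 CPM in control libraries. Messages of replication-dependent histones lack poly(A). Cluster genes whose messages carry it were not set apart, so the sum is not a measure of unselected RNA alone. The sum was 187, 247, 182, 177, 271 and 205 CPM in knock-down 1 to 6, highest in knock-down 5 and 2 and lowest in knock-down 4. All 3 of these libraries had more ribosomal RNA per messenger RNA count than any control. This sum was added after the data were seen.

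The nuclear genome holds many copies of mitochondrial DNA, and reads of a mitochondrial transcript can align to a close copy as well. The table had 407 rows named as such copies, of which 151 had a count and 18 were tested. edgeR called 0 of the 18, beside 0.297% of all genes. DESeq2 and limma-voom also called 0 of the 18, beside 351 and 56 genes of the whole table. None of the 18 had an unadjusted edgeR p below 0.05, beside 12.7% of all genes. They held 225633 counts in all 12 libraries, 1.03% of the counts of the members themselves, and 4 copies held 95.1% of that. The labels do not say how reads with several alignments were counted. All 18 protein-coding rows with exons annotated on both sex chromosomes had no count in any library. Whether reads shared between a member and a close copy were left out of the counts was not tested. The windows below show why a close copy is hard to separate from its parent and a distant one is not: each is 30 bases, in the sense direction, with the bases that differ between parent and copy in capitals. MT-ATP6 is shown at chrM:8535-8564 beside MTATP6P1 at chr1:633704-633733 (plus strand), and MT-CO1 at chrM:6548-6577 beside MTCO1P25 at chr7:69332697-69332726 (minus strand), all on hg38 from the GENCODE 29 transcripts.

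MT-ATP6: aaatctgttcGcttcattcattgcccccac
MTATP6P1: aaatctgttcActtcattcattgcccccac
MT-CO1: caacacCAcCttCttCgaCCcCgcCggAGg
MTCO1P25: caacacTTcTttTttTgaTGcTgcTggCAg

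The first pair differ at 1 base of 30 and the second at 11. MTATP6P1 was identical to MT-ATP6 at 98.5% of aligned positions, with a longest shared run of 141 bases. It averaged 379 ± 115 CPM in knock-down and 362 ± 201 CPM in control libraries (SD, n = 6 each; log2 fold change 0.07, edgeR adjusted p = 0.951). MTND4P12 on chromosome 5 was 95.8% identical to MT-ND4, MTND2P28 on chromosome 1 98.4% identical to MT-ND2 and MTCO1P12 on chromosome 1 98.6% identical to MT-CO1. MTCO2P22 on chromosome 5 shared 90.2% with MT-CO2. MTCO1P25 on chromosome 7 shared 77.7% with MT-CO1 over 892 aligned positions, with no shared run above 27 bases.

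Distant copies stood apart from their parents in a few libraries. MTCO1P25 had 2.22, 4.36, 0.910, 19.4, 4.30 and 1.58 CPM in knock-down 1 to 6, against 0.630, 0.910, 1.91, 1.39, 6.84 and 20.7 CPM in control 1 to 6. Knock-down 4 and control 6 stood far above the rest, and control 5 was the next. In knock-down 4 the copy was 8.76-fold above the median of the other knock-down libraries, where MT-CO1 was 1.29-fold above it. In control 6 it was 14.9-fold above the median of the other controls, and MT-CO1 2.36-fold.

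The same contrast held over the 16 copies with a mean of at least 20 counts, divided at 95% identity after the values were seen and with no test. The 8 closer copies were 0.483-fold to 2.34-fold the group median in knock-down 4 and 2.55-fold to 3.92-fold in control 6. The 8 more distant copies, from 72.1% to 92.9% identical, were 2.03-fold to 8.76-fold in knock-down 4 and 3.38-fold to 16.5-fold in control 6. In both libraries the ranges of closer and more distant copies overlapped. The 16.5-fold value was that of MTND3P19, which had only 1, 3, 6, 7 and 27 counts in control 1 to 5. In control 5, whose mitochondrial share was 6.61%, the distant copies had a median ratio of 3.999 and the closer ones of 1.26. None of the 16 was called between the groups (edgeR adjusted p from 0.763 to 0.997). Without control 6 all 18 tested copies had positive log2 fold changes, beside 52.8% of all genes, with a median of 0.59. In that edgeR fit 0 were called, beside 0.461% of all genes, and 3 had an unadjusted p below 0.05, beside 19.2%. For each of the 16 copies above, the library left out was the highest control.

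**Figure D5:**
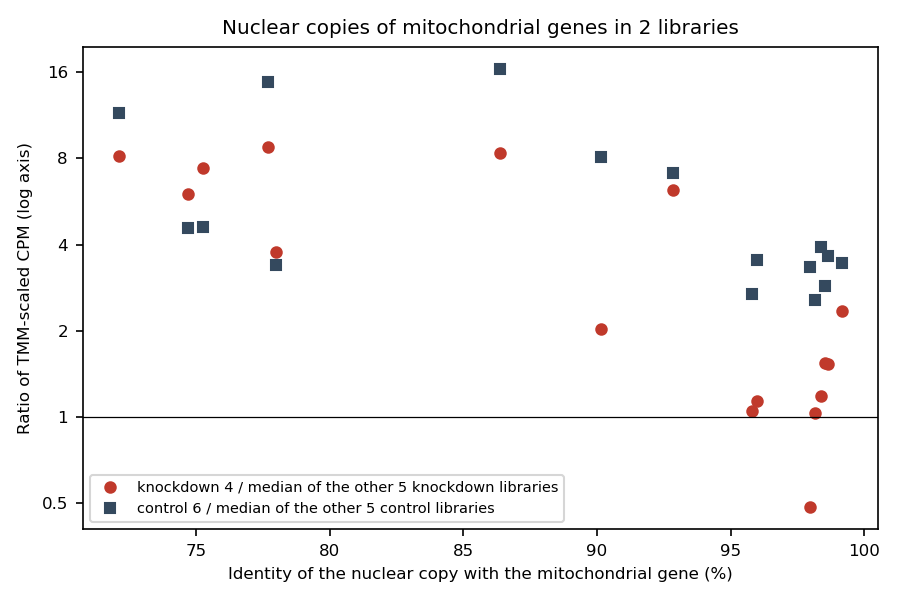
Nuclear copies of mitochondrial genes with a mean of at least 20 counts. The x axis is the identity with the mitochondrial parent in percent, and the y axis, on a log scale, is the level in knock-down 4 (circles) or control 6 (squares) over the median of the other 5 libraries of the same group. Copies below 95% identity reach 8.76-fold in knock-down 4 and 16.5-fold in control 6, and copies above it 2.34-fold and 3.92-fold. The 16.5-fold point is MTND3P19, which had 1 to 27 counts in the other controls.

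Nuclear genes that express the mitochondrial genome had 0 called genes among 151 tested, beside 0.297% of all genes, and 9 with an unadjusted p below 0.05, beside 12.7%. DESeq2 and limma-voom also called 0 of them, beside 351 and 56 genes of the whole table. Of these 151 genes 92 had positive log2 fold changes, beside 52.4% of all genes, and the median was 0.05, beside 0.01 over all genes. Without control 6 the count called stayed 0 of 151, beside 0.461% of all genes, 24 had an unadjusted p below 0.05, beside 19.2%, and the median was again 0.05. Of the 15 genes that maintain and transcribe mitochondrial DNA 9 were positive, with a median of 0.07. The smallest p in that list were those of POLG2, the accessory subunit of the mitochondrial DNA polymerase, with a log2 fold change of −0.25 (edgeR adjusted p = 0.397), and TFB2M, a transcription initiation factor, with 0.21 (0.519).

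Genes for the processing and modification of mitochondrial RNA had 15 of 32 positive and a median of −0.02. Among them TRMU, which thiolates transfer RNAs, had a log2 fold change of −0.24 (edgeR adjusted p = 0.425) and ELAC2, which cuts their 3′ ends, one of −0.21 (0.470). Translation factors had 5 of 14 positive and a median of −0.02. GFM1, an elongation factor, averaged 73.2 ± 13.2 CPM in knock-down and 91.8 ± 13.6 CPM in control libraries (SD, n = 6 each), with a log2 fold change of −0.33 (edgeR adjusted p = 0.325), and MTFMT, which formylates the initiator transfer RNA, had one of −0.18 (0.483). Of the 9 regulators of mitochondrial biogenesis 8 were tested, 3 were positive and the median was −0.04. Subunits of the GABP transcription factor had the smallest p there, GABPA with a log2 fold change of 0.22 (edgeR adjusted p = 0.587) and GABPB1 with 0.15 (0.662).

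Proteins of the mitochondrial ribosome were the list with the most positive values, 60 of 82, beside 52.4% of all genes, with a median of 0.08. Of the 82, 8 had an unadjusted edgeR p below 0.05, beside 12.7% of all genes. MRPL23, of the large subunit, averaged 11.98 ± 1.39 CPM in knock-down and 8.84 ± 1.79 CPM in control libraries (SD, n = 6 each; log2 fold change 0.44, edgeR adjusted p = 0.241). MRPL36, also of the large subunit, averaged 22.8 ± 3.28 CPM in knock-down and 18.2 ± 1.51 CPM in control libraries (SD, n = 6 each; log2 fold change 0.33, edgeR adjusted p = 0.254). For each of these genes the groups overlapped.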

How the data were processed

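The authors deposited 1 table of raw counts per gene for 12 libraries, without normalisation. Per the labels' protocols, RNeasy extraction was followed by TruSeq stranded mRNA library preparation. FastQC, STAR 2.6.0a, featureCounts, limma 3.40.2, R 3.6.0 and hg38 are named in the submitters' processing notes. Here the whole table was analysed in R 4.3.3: filterByExpr and TMM factors of edgeR 4.0.16, the quasi-likelihood F test with robust fits and no covariate, Benjamini-Hochberg adjustment over all 16519 genes kept, and a call at an adjusted p below 0.05. The code recovered known changes in data simulated with the same dispersion for every gene and no outlying library. That check does not show what size of change could be called in members as variable as these. CPM values carry TMM factors of 0.921 to 1.04 and errors are SDs over 6 libraries. Shares use raw counts over all rows. DESeq2 1.42.0, limma-voom (limma 3.58.1), other scalings, filters and left-out libraries were alternatives. Identity with nuclear copies came from pairwise alignment of GENCODE 29 transcripts. All members are named, with the 6 copies of highest mean count and, from each nuclear list, the 2 genes with the smallest p. Of 152 entries in those lists, 2 were found under older symbols. Members and lists were chosen with earlier results of these data known. All columns of counts were used. The level of 1 leukocyte marker is not reported here. Errors are given as the spread between libraries, with no counting intervals; PCR reads without molecular identifiers are not independent molecules.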

Additional observations from a re-analysis of the deposited data

Results flagged for a closer look

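Of 118 groups of 6 values examined for a library far from the others, 30 held one, where chance gives about 5.9, or 1 in 20; the genes share libraries and are not independent. Knock-down 4 stood apart in 3 values: MT-TL1 at 39.1 CPM against 12.6 to 18.2 CPM in the other knock-down libraries, MT-TE at 64.1 CPM against 6.78 to 26.4 CPM, and MTCO1P25 at 19.4 CPM against 0.910 to 4.36 CPM. Knock-down 5 had 3.42 CPM of MT-TG, against 1.45 to 2.05 CPM in the other knock-down libraries.

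In 26 of the 30 the library was control 6 and in each it was the highest of the controls. Its mitochondrial share was 14.4%, where the other 5 controls had 4.65% to 7.08%. In CPM it had 1469 of MT-RNR1, 10672 of MT-RNR2, 5332 of MT-ND1, 12434 of MT-ND2, 3239.6 of MT-ND3, 33347.5 of MT-ND4, 3625 of MT-ND5 and 638 of MT-ND6. It also had 10344 CPM of MT-CYB, 20937 of MT-CO1, 18499.5 of MT-CO2, 22574 of MT-CO3 and 9144 of MT-ATP6. Of the transfer RNAs it had 25.8 CPM of MT-TL1, 2.05 of MT-TM, 8.67 of MT-TG, 2.55 of MT-TR and 12.8 of MT-TT. For the nuclear copies the values were 753 CPM of MTATP6P1, 371 of MTND4P12, 325 of MTND2P28, 99.3 of MTCO1P12, 20.7 of MTCO1P25 and 21.9 of MTCO2P22. MT-ND2 was 8.59% of the messenger RNA counts in control 6, where the other 5 had 6.16% to 6.65%.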

How the results depend on the processing

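edgeR called 49 genes of the whole table, DESeq2 351, a fit with the title letter as covariate 28, counts summed by title number 7, and a fit without control 6, knock-down 4 and knock-down 5, chosen after seeing the data, 108; with 1 library left out the count lay between 16 and 79, and it moved by over 1.5 times without knock-down 1 (16), knock-down 3 (31), knock-down 4 (79), control 1 (19), control 2 (20), control 3 (16), control 4 (28) or control 6 (77). Mitochondrially encoded genes called were 0 under every alternative, as were genes of the nuclear lists, and the lowest adjusted p of a member was 0.0636, for MT-TE without knock-down 6. Some log2 fold changes took the other sign as follows, and the cause was not tested. In limma-voom they were 0.039 for MT-ND1, 0.028 for MT-ND2, 0.057 for MT-CO1, 0.0077 for MT-ATP8, 0.0027 for MT-ND4 and 0.11 for MT-TR. With the title letter they were 0.13 for MT-ND1, 0.035 for MT-ND2, 0.14 for MT-CO1, 0.10 for MT-ATP8, 0.021 for MT-CO3, 0.042 for MT-ND4L, 0.074 for MT-ND4, 0.29 for MT-TR, 0.0061 for MT-TH and 0.025 for MT-TL2. Without control 6, knock-down 4 and knock-down 5 they were 0.055 for MT-ND1, 0.24 for MT-ND2, 0.068 for MT-CO1, 0.0091 for MT-ATP8, 0.030 for MT-CO3, 0.030 for MT-ND4 and 0.16 for MT-TR. Sums by title number gave −0.0088 for MT-TI, −0.24 for MT-ATP6, −0.25 for MT-ND3 and −0.18 for MT-CYB, and RLE factors and DESeq2 each gave −0.00061 for MT-ATP6.

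With 1 library left out, log2 fold changes ran from −0.15 to 0.37 for MT-ATP6, −0.22 to 0.14 for MT-ATP8, −0.14 to 0.26 for MT-CO1, −0.40 to 0.10 for MT-CO2, −0.29 to 0.23 for MT-CO3, −0.079 to 0.49 for MT-CYB, −0.14 to 0.25 for MT-ND1, −0.29 to 0.38 for MT-ND2, −0.21 to 0.79 for MT-ND3, −0.25 to 0.28 for MT-ND4, −0.24 to 0.16 for MT-ND4L, −0.78 to 0.088 for MT-TG, −0.10 to 0.56 for MT-TI and −0.38 to 0.34 for MT-TR. The difference in mitochondrial share, knock-down minus control, ran from −0.642 to 1.34 percentage points. No paired analysis was possible because no title number occurs in both groups.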
